A study of Mus musculus with 6 samples.

Results

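The enzymes that assemble triglyceride and the lipases that take it apart were followed in mouse liver through 10 genes: Gpam, Agpat2, Lpin1, Lpin2, Mogat1, Dgat1, Dgat2, Pnpla2, Mgll and G0s2. They were chosen by symbol as acyltransferases, lipins and lipases, and all 10 were found among the 49212 genes counted. In this set 7 genes serve synthesis, 2 encode lipases and 1, G0s2, encodes an inhibitor of a lipase. Livers came from C57BL/6J mice aged 15 weeks. There were 3 libraries labelled DHT, from mice carrying a pellet of dihydrotestosterone, a potent androgen used to model polycystic ovary syndrome (PCOS), and 3 libraries labelled placebo. The labels give no sex, dose, length of treatment, feeding state, time of collection or number of animals per library, and a p-value here speaks of the spread among these 6 libraries, which may be technical. The study's title concerns androgen, the liver clock and fatty liver, and these genes bear on how such a liver stores or releases fat.

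Hepatocytes build triglyceride by adding fatty acyl chains to glycerol 3-phosphate, removing the phosphate and adding a last chain. GPAM performs the first acylation, AGPAT2 the next, lipins remove the phosphate to give diacylglycerol, and DGAT1 or DGAT2 adds the last chain. MOGAT1 reaches diacylglycerol by another route, from monoacylglycerol. In breakdown, ATGL (encoded by Pnpla2) cuts the first chain from triglyceride, MGLL cuts the last one from monoacylglycerol, and the small protein G0S2 binds and inhibits ATGL.

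Total counts per library were 41336844 to 59257416 in the libraries labelled DHT and 52814320 to 60209462 in placebo, and the 10 genes held 0.156% to 0.223% of them in DHT and 0.134% to 0.206% in placebo. The groups differed in more than the label. Transcripts of the Y chromosome stood at 145 to 169 counts-per-million (CPM) of all counts in the 3 libraries labelled DHT and at 1.02 to 2.16 CPM in placebo. Ddx3y, a Y-linked helicase gene, had 3274 to 4342 counts in DHT and 3 to 6 in placebo, and Eif2s3y, a Y-linked initiation factor gene, 2431 to 3038 in DHT and 1 to 5 in placebo. Xist, the RNA that silences an X chromosome, had 6 to 23 counts in DHT and 1281 to 12404 in placebo. The treatment label and this Y and Xist difference cannot be told apart in any comparison here. The libraries numbered 3 stood apart in both groups: their deviations from the group means correlated across genes (r = 0.602), and results are given with and without them where that changes a call. Mitochondrial transcripts took 6.44% to 8.47% of counts in DHT and 3.23% to 6.83% in placebo. In RNA from whole tissue, fewer cells of a type and less RNA per cell cannot be told apart.

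One member was called. By edgeR's quasi-likelihood test, with values scaled by TMM (trimmed mean of M-values, which evens out RNA composition) and p-values adjusted over 15126 genes, 1 of the 10 genes rose, Mogat1, and 0 fell at an adjusted p under 0.05. Over all genes tested, 0.952% were called higher and 0.701% lower. At an unadjusted p under 0.05, 4 members were higher and 1 lower, against 7.4% and 8.52% of all genes. At the adjusted threshold DESeq2 called 2 members higher and 0 lower, against 3.3% and 3.73% of all genes, and limma voom called 2 higher and 0 lower, against 2.58% and 2.34%. The median log2 fold change, DHT minus placebo, was 0.39 over the members and −0.02 over all genes. On the scaled CPM, the groups did not overlap in 5 members, 3 with every DHT library above placebo (Agpat2, Mogat1 and G0s2) and 2 with every DHT library below (Dgat1 and Dgat2). Over all genes, 12.7% lay wholly above and 10.9% wholly below. With CPM of all counts and no scaling, Mgll joined those above, which made 4, and Dgat1 overlapped, which left Dgat2 alone below, where all genes gave 21.1% above and 6.27% below.

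**Figure D1:**
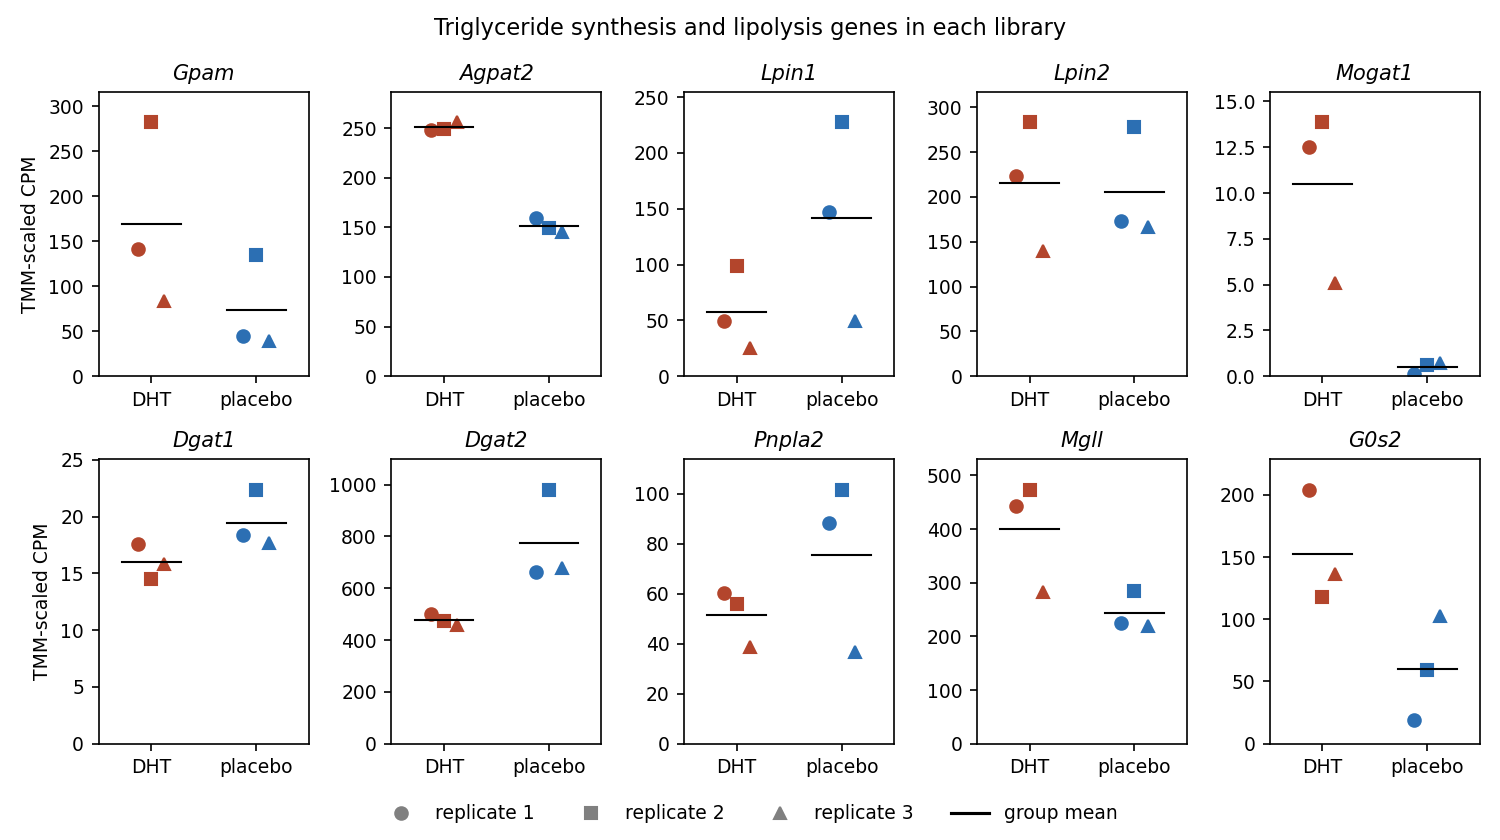
TMM-scaled CPM (vertical axes, linear, from 0) of each of the 10 genes in the 3 DHT libraries, left, and the 3 placebo libraries, right, in each panel; symbols mark the replicate number and bars the group mean. Mogat1 and Agpat2 show a gap between the groups, while in Gpam, Lpin1, Lpin2 and Pnpla2 the libraries within a group lie as far apart as the groups do.

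Mogat1 (GRCm38 chromosome 1, 78510991 to 78538173) encodes the acyltransferase of the monoacylglycerol route. It had 772, 775 and 227 counts in DHT libraries 1, 2 and 3, against 7, 32 and 35 in placebo libraries 1, 2 and 3. On the scaled CPM these were 12.5, 13.9 and 5.08 in DHT and 0.120, 0.631 and 0.720 in placebo. Every DHT library lay above every placebo library, with DHT 3 the lowest of its group and placebo 1 the lowest of all. The log2 fold change was 4.43 ± 0.68 (SE), or 21.5-fold, with an adjusted p of 0.0199. Mogat1 lost its call without DHT 1 (adjusted p = 0.0599), DHT 2 (0.0753), placebo 1 (0.0512) or placebo 2 (0.0816), and kept it without both libraries numbered 3 (log2 fold change 5.16, adjusted p = 0.0123), where it was the 1 member called and 1.75% of all genes were called higher and 1.2% lower. The size of the difference varied between same-numbered libraries, at 6.70, 4.46 and 2.82 on the log2 scale for numbers 1, 2 and 3.

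Exons of Mogat1 overlap those of BC035947, on the opposite strand, over 12.8% of their length, and the strand setting of the counting is not given in the sources used here. Reads in the overlap thus cannot be assigned to a strand. BC035947 had 27, 26 and 7 counts in DHT libraries 1, 2 and 3 and 0 in each placebo library. Mogat1 is also a gene of fat tissue, and the list of 6 adipocyte markers was set beside it. Their summed CPM was 5.19, 15.2 and 58.7 in DHT 1, 2 and 3 and 0.447, 0.315 and 1.23 in placebo 1, 2 and 3. Nearly all of the sum in DHT came from Cfd, the gene of complement factor D, with 270, 803 and 2475 counts in DHT and 3, 4 and 7 in placebo, and Cfd was called higher (log2 fold change 8.07, adjusted p = 0.0134), a call it lost without placebo 1 (adjusted p = 0.109), placebo 2 (0.0774) or placebo 3 (0.0990) and in limma voom (0.206). Only 2 of the 6 markers were high enough to test. The other one, Adrb3, the gene of an adrenergic receptor of fat cells, had 48, 50 and 147 counts in DHT 1, 2 and 3 and 22, 11 and 51 in placebo 1, 2 and 3, which overlapped on the scaled CPM. Its log2 fold change was 1.59 (adjusted p = 0.348), and it was higher in DHT in each pair, by 1.04, 2.04 and 1.65 on the log2 scale. The blocked fit called it along with Cfd (adjusted p = 0.0135 for Adrb3), where 5.44% of all genes were called higher. The other 4 markers were at or near 0: Lep, the leptin gene, had no count in any library, Adipoq, the adiponectin gene, had 0, 0 and 1 in DHT and 1, 0 and 2 in placebo, Plin1 had at most 1 and Retn at most 2. The part of these markers in the Mogat1 difference was not tested.

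The mitochondrial acyltransferase gene Gpam (chromosome 19, 55069734 to 55099451) and the phosphatidic acid phosphatase gene Lpin1 (chromosome 12, 16535669 to 16589770) differed in opposite directions between same-numbered libraries. Gpam had 141, 282 and 83.9 CPM in DHT 1, 2 and 3, against 45.0, 135 and 39.3 CPM in placebo 1, 2 and 3. Library 2 was the highest and library 3 the lowest of each group, so that placebo 2 lay above DHT 3 and the groups overlapped. Lpin1 had 49.1, 98.9 and 25.1 CPM in DHT 1, 2 and 3, against 147, 227 and 49.7 CPM in placebo 1, 2 and 3. The order of the libraries was the same as in Gpam, and placebo 3 lay within the range of DHT.

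Without regard to the replicate number neither gene passed: the log2 fold change was 1.21 ± 0.59 for Gpam (adjusted p = 0.358) and −1.29 ± 0.63 for Lpin1 (adjusted p = 0.356). Single libraries weighed on both: with 1 left out, Gpam ran from 0.62 (without DHT 2) to 1.99 (without placebo 2) and Lpin1 from −1.92 (without DHT 2) to −0.77 (without placebo 2), and neither passed. With the replicate number as a block the estimates were close to these and their errors smaller. In that fit Gpam was higher by 1.27 ± 0.28 (adjusted p = 0.00106) and Lpin1 was lower, at −1.26 ± 0.28 (adjusted p = 0.000966). The DHT library was higher in Gpam by 1.64, 1.06 and 1.09 on the log2 scale in pairs 1, 2 and 3, and in Lpin1 the differences were −1.58, −1.20 and −0.98. The labels name no pairs. In deviations from group means, DHT 1 correlated more with placebo 2 (r = 0.445) than placebo 1 (0.246), and DHT 2 more with placebo 1 (0.287) than placebo 2 (0.145). With placebo 1 and 2 swapped, Gpam would be 141 CPM beside 135 and 282 beside 45.0, and Lpin1 49.1 CPM beside 227 and 98.9 beside 147. The blocked calls of both genes were made with the match by number. A swapped block was not fitted, so whether either call would hold in it is not known. The blocked fit called 2 of the 10 members higher (Gpam and Mogat1, the last with an adjusted p of 0.00901) and 1 lower (Lpin1), where 5.44% of all genes were called higher and 5.28% lower. It made more calls everywhere, 1621 against 250 without the block. Gpam was not called in any of the other 14 alternatives, nor was Lpin1. Of all 10 members, 5 were higher in DHT in each of the 3 pairs (Gpam, Agpat2, Mogat1, Mgll and G0s2) and 3 were lower in each (Lpin1, Dgat1 and Dgat2), where 23.4% and 21.9% of all genes did so.

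**Figure D2:**
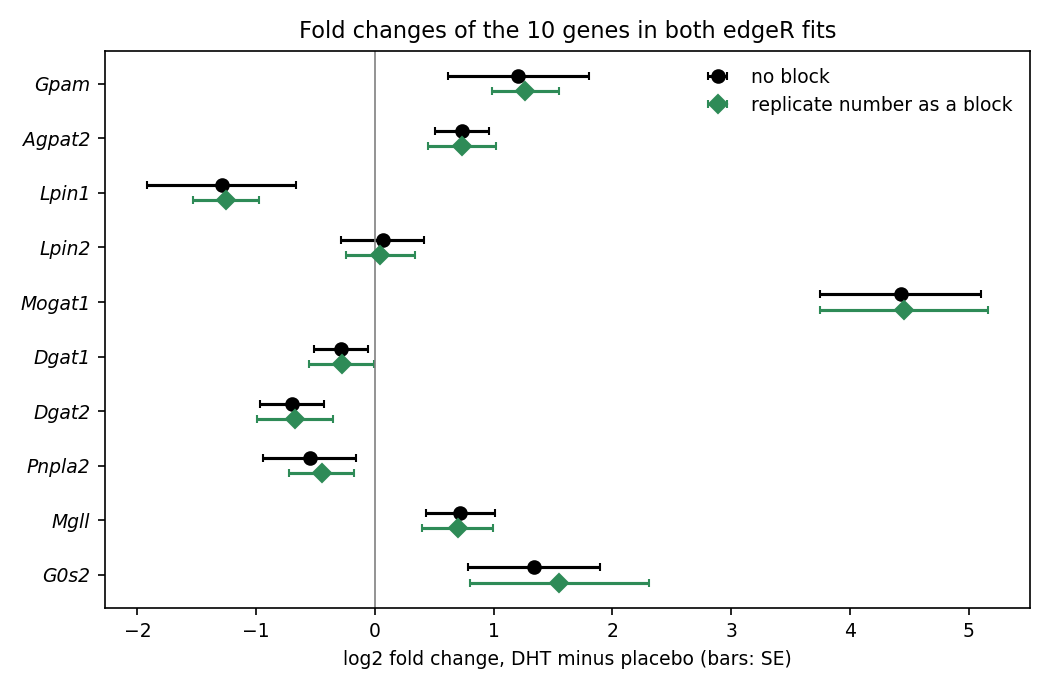
Log2 fold change, DHT minus placebo (horizontal axis), of each gene in the edgeR fit without a block (black circles) and with the replicate number as a block (green diamonds); bars are SE and the line marks no change. The estimates of the fits lie close together, at 1.21 and 1.27 for Gpam and −1.29 and −1.26 for Lpin1, while the bars of these 2 genes are shorter in the blocked fit.

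The RefSeq windows around the start sites of the 3 genes called in either fit show what sequence lies there. Each runs from 250 bases before to 50 after a start site on GRCm38.p6, read 5′ to 3′ on the strand of the gene. Capitals mark matches on either strand to the letters AGGTCA, a half-site of many nuclear receptors, and AGAACA, a half-site of the androgen and glucocorticoid receptors.
Mogat1, chr1:78510810-78511109, plus strand: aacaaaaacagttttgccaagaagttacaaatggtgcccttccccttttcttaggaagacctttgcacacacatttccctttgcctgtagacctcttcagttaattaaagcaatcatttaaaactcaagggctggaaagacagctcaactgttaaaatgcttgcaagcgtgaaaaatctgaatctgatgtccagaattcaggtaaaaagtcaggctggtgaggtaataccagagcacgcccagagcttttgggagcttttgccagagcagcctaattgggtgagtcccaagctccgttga
Gpam, chr19:55099428-55099727, minus strand: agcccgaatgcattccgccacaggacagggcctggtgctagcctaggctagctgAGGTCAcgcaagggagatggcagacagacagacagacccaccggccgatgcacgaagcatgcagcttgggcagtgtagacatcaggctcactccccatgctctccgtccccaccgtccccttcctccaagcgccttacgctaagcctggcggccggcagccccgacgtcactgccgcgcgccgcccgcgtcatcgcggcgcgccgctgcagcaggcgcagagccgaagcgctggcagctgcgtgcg
Lpin1, chr12:16610917-16611216, minus strand: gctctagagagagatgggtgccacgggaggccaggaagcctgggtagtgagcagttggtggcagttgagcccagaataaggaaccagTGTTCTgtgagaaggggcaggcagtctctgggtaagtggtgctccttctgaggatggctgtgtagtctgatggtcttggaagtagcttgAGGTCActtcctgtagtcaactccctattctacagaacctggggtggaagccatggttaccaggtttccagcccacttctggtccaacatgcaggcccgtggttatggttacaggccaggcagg
The Mogat1 window holds neither set of letters. The Gpam window, the nearer of 2 to the gene as counted, holds AGGTCA at positions −196 to −191 from the start site. In Lpin1, AGGTCA lies at −74 to −69 and the reverse complement of AGAACA, printed as TGTTCT, at −163 to −158, and the window lies upstream of the exons that the deposited tables count. These letters are common, since AGGTCA is found in 16.3% and AGAACA in 19% of the 32851 windows of the same length in the table. For the members, 8 of 10 genes were matched in it, with 12 windows, and Dgat1 and Dgat2 were not matched. Among the other members, AGAACA was matched in a window of Lpin2 (chr17:71204404-71204703, at −203 to −198) and in one of Mgll (chr6:88724162-88724461, at −178 to −173). The E-box CACGTG, bound by clock factors among others, was found in another window of Lpin2 (chr17:71183282-71183581) and in the same window of Mgll, and in 7.15% of all windows. The SREBP element TCACNCCAC (1.24% of all windows) was in none of the 12. A match is a description of letters and not a measured site.

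Agpat2 (chromosome 2, 26593057 to 26604417), whose loss in humans causes a form of congenital lipodystrophy, was the most even of the members within groups. It had 248, 249 and 256 CPM in DHT 1, 2 and 3, against 159, 150 and 145 CPM in placebo 1, 2 and 3. The groups were separated by a gap wider than either group's range. The log2 fold change was 0.73 ± 0.23 and did not pass (adjusted p = 0.177). DESeq2 called it (adjusted p = 0.0231), and over the 15 alternatives its adjusted p ran from 0.0231 to 0.514. Its exons overlap those of Egfl7 on the opposite strand over 3.01% of their length.

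The relative levels of the lipin genes were compared next. Lpin2 (chromosome 17, 71182560 to 71249817) had 224, 283 and 139 CPM in DHT 1, 2 and 3, against 173, 278 and 166 CPM in placebo 1, 2 and 3. The groups overlapped along their whole range, the log2 fold change was 0.06 ± 0.35 (adjusted p = 0.949), and its sign changed when DHT 2, placebo 1 or placebo 3 was left out. On a per-length scale (TPM, counts divided by exon length and set to a common total), Lpin1 made up 31.9%, 42.7% and 27.8% of the lipin level in DHT 1, 2 and 3, against 64.5%, 63.6% and 38.9% in placebo 1, 2 and 3. Placebo 3 lay below DHT 2, so these shares overlapped.

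The enzymes of the last step stood lower in DHT without passing the test. Dgat2 (chromosome 7, 99153658 to 99182719) had 499, 473 and 460 CPM in DHT 1, 2 and 3, against 665, 979 and 677 CPM in placebo 1, 2 and 3. All 3 DHT libraries lay below placebo, by a log2 fold change of −0.70 ± 0.27 (adjusted p = 0.261, lowest over the 15 alternatives 0.0923). Dgat1 (chromosome 15, 76502015 to 76511951) had 17.5, 14.5 and 15.8 CPM in DHT 1, 2 and 3, against 18.4, 22.3 and 17.6 CPM in placebo 1, 2 and 3. DHT 1 and placebo 3 differed by less than the spread of either group, and the log2 fold change was −0.29 ± 0.23 (adjusted p = 0.567). Dgat2 was the more abundant of the pair per length, at 28.2, 32.4 and 28.7 times the TPM of Dgat1 in DHT 1, 2 and 3 and 35.9, 43.4 and 38.0 times in placebo 1, 2 and 3.

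The lipase genes had estimates of opposite sign, and neither passed the test. Pnpla2 (chromosome 7, 141455198 to 141460743), the gene of ATGL, had 60.1, 56.1 and 38.8 CPM in DHT 1, 2 and 3, against 88.3, 102 and 36.9 CPM in placebo 1, 2 and 3. Placebo 3 was the lowest of all 6 libraries, so the groups overlapped, and the log2 fold change was −0.55 ± 0.39 (adjusted p = 0.520). With 1 library left out it ran from −0.88 (without placebo 3, adjusted p = 0.0616) to −0.28 (without placebo 2, adjusted p = 0.710). Mgll (chromosome 6, 88724412 to 88828360), which also breaks down the endocannabinoid 2-arachidonoylglycerol, had 444, 473 and 283 CPM in DHT 1, 2 and 3, against 225, 285 and 219 CPM in placebo 1, 2 and 3. DHT 3 lay just under placebo 2, and the log2 fold change was 0.72 ± 0.29 (adjusted p = 0.284). Exons of Mgll overlap those of Gm26588 on the opposite strand over 3.29% of their length.

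The ATGL inhibitor gene G0s2 (chromosome 1, 193272161 to 193273217) had 204, 118 and 137 CPM in DHT 1, 2 and 3, against 18.9, 59.4 and 103 CPM in placebo 1, 2 and 3. All DHT libraries were above placebo, but placebo 3 lay closer to DHT 2 than to placebo 1. The log2 fold change was 1.34 ± 0.55, or 2.53-fold, and did not pass (adjusted p = 0.292). It was 1.96 without placebo 3 (adjusted p = 0.0652) and 0.89 without placebo 1 (adjusted p = 0.373), the ends of its range with 1 library left out. limma voom with sample quality weights called it (2.10 ± 0.46, adjusted p = 0.0337), and the blocked fit did not (1.55 ± 0.75, adjusted p = 0.322). Differences between same-numbered libraries were 3.43, 0.99 and 0.41 on the log2 scale, so pair 1 carried the largest of them.

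Set per length against the lipase it inhibits, G0s2 stood at 11.8, 7.29 and 12.2 times the TPM of Pnpla2 in DHT 1, 2 and 3, and at 0.742, 2.03 and 9.67 times in placebo 1, 2 and 3. Placebo 3 was above DHT 2 in this ratio, so the groups overlapped. Mgll stood at 4.39, 5.02 and 4.35 times the TPM of Pnpla2 in DHT and at 1.51, 1.67 and 3.53 times in placebo, in the same order of libraries, with no overlap. Gpam stood at 4.28, 4.26 and 4.99 times the TPM of Lpin1 in DHT and at 0.457, 0.887 and 1.18 times in placebo. That ratio separated the groups by more than the spread within either one, although each gene alone overlapped. Ratios within a library do not depend on how libraries are scaled. These pairs were chosen with the values known, and the ratios were not tested.

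**Figure D3:**
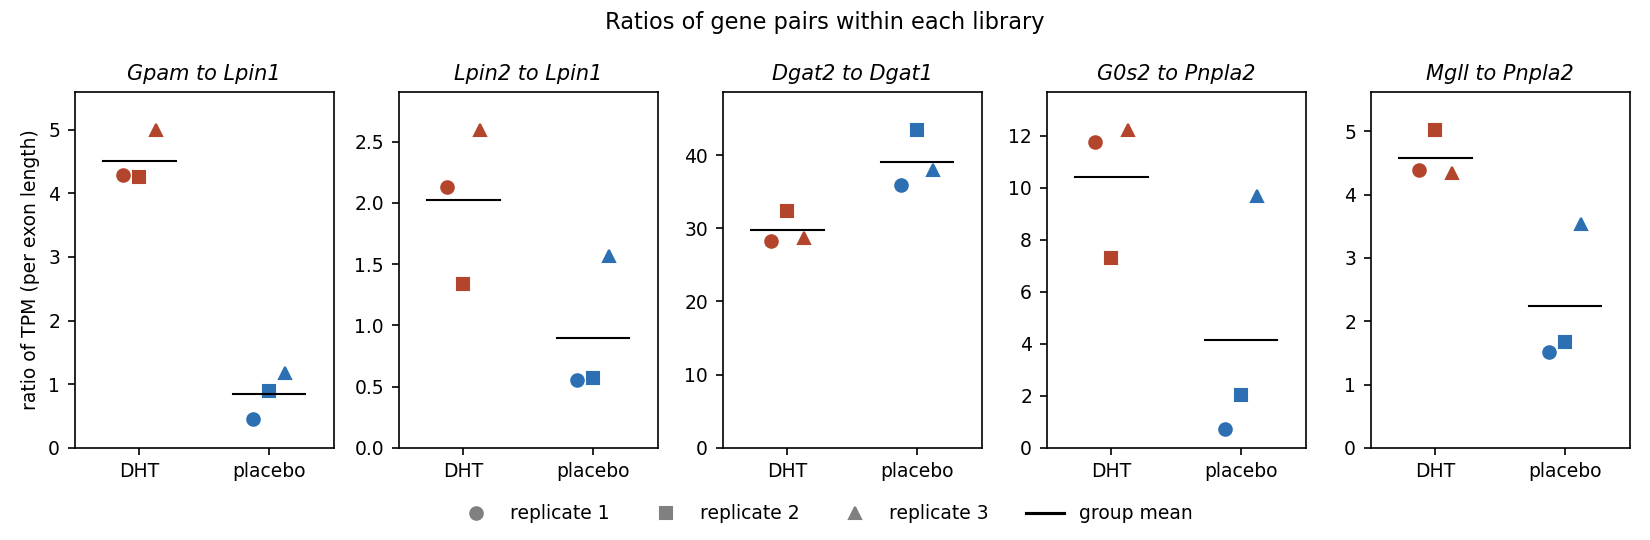
Ratio of TPM (vertical axes, linear, from 0) for 5 gene pairs in the 3 DHT libraries, left, and the 3 placebo libraries, right, in each panel; symbols mark the replicate number and bars the group mean. Gpam to Lpin1, Dgat2 to Dgat1 and Mgll to Pnpla2 do not overlap between groups, while placebo 3 reaches the DHT range in Lpin2 to Lpin1 and G0s2 to Pnpla2.

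Per length, the order of the levels differed between the groups. In DHT the mean TPM was highest for G0s2 (398 ± 125, SD, n = 3), ahead of Dgat2 (351 ± 26.5), Agpat2 (266 ± 5.98), Mgll (179 ± 51.4) and Gpam (101 ± 63.0). G0s2 and Dgat2 did not differ beyond the spread of G0s2. Below them came Lpin2 (40.2 ± 14.6), Pnpla2 (38.9 ± 9.79), Lpin1 (23.1 ± 15.5), Mogat1 (15.4 ± 7.31) and Dgat1 (11.8 ± 1.27), each within the spread of its neighbour except for the step between Pnpla2 and Lpin1, which about equalled the SD of Lpin1. In placebo the order was Dgat2 (490.2 ± 154, SD, n = 3), Agpat2 (137 ± 16.0), G0s2 (131 ± 82.7), Mgll (93.1 ± 22.2), Pnpla2 (49.6 ± 25.5), Lpin1 (49.5 ± 34.1), Gpam (38.2 ± 31.0), Lpin2 (33.0 ± 12.9), Dgat1 (12.4 ± 2.71) and Mogat1 (0.602 ± 0.392). There G0s2 did not differ from Agpat2 or Mgll beyond its spread, and Pnpla2, Lpin1, Gpam and Lpin2 could not be ordered beyond their spread. Mogat1 thus lay at the bottom of the placebo order by a wide margin, and beside Dgat1 in DHT.

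Synthesis compared with breakdown gave opposite answers depending on how the genes were weighted. With each gene weighted alike, the mean log2 CPM of the 7 synthesis genes minus that of Pnpla2 and Mgll was −0.88, −0.57 and −0.80 in DHT 1, 2 and 3, against −1.66, −1.11 and −0.97 in placebo 1, 2 and 3. DHT lay above placebo in each library, by 0.49 between the means (−0.75 ± 0.16 in DHT and −1.25 ± 0.36 in placebo, SD, n = 3 each). Without Mogat1 the difference between the means was −0.15, with −0.42, −0.08 and −0.21 in DHT 1, 2 and 3 and −0.30, 0.03 and 0.02 in placebo 1, 2 and 3, which overlap. Weighted by abundance, the summed TPM of the synthesis genes was 3.32, 3.56 and 4.59 times that of the lipases in DHT 1, 2 and 3, against 4.73, 5.49 and 5.91 times in placebo 1, 2 and 3. This ratio was lower in every DHT library, by 0.50 on the log2 scale between the means (1.92 ± 0.25 in DHT and 2.42 ± 0.16 in placebo). The lipase sum was mostly Mgll, whose enzyme acts on monoacylglycerol, with a mean TPM of 179 in DHT and 93.1 in placebo. Pnpla2, the gene of the triglyceride lipase, went the other way, at 38.9 in DHT and 49.6 in placebo. G0s2 is in neither sum.

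Dgat2 was the most abundant synthesis gene in every library. It made up 45.5%, 38.6% and 47.3% of the summed TPM of the synthesis genes in DHT 1, 2 and 3, against 62.0%, 64.4% and 67.3% in placebo 1, 2 and 3. Mogat1 made up 1.03% to 2.26% in DHT and 0.0222% to 0.141% in placebo. The summed TPM itself overlapped between groups, at 809 ± 120.5 in DHT and 761 ± 244 in placebo for synthesis, and at 218 ± 60.9 in DHT and 143 ± 46.0 in placebo for the lipases (SD, n = 3 each). No p is given for these sums, since their genes were chosen with results known.

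**Figure D4:**
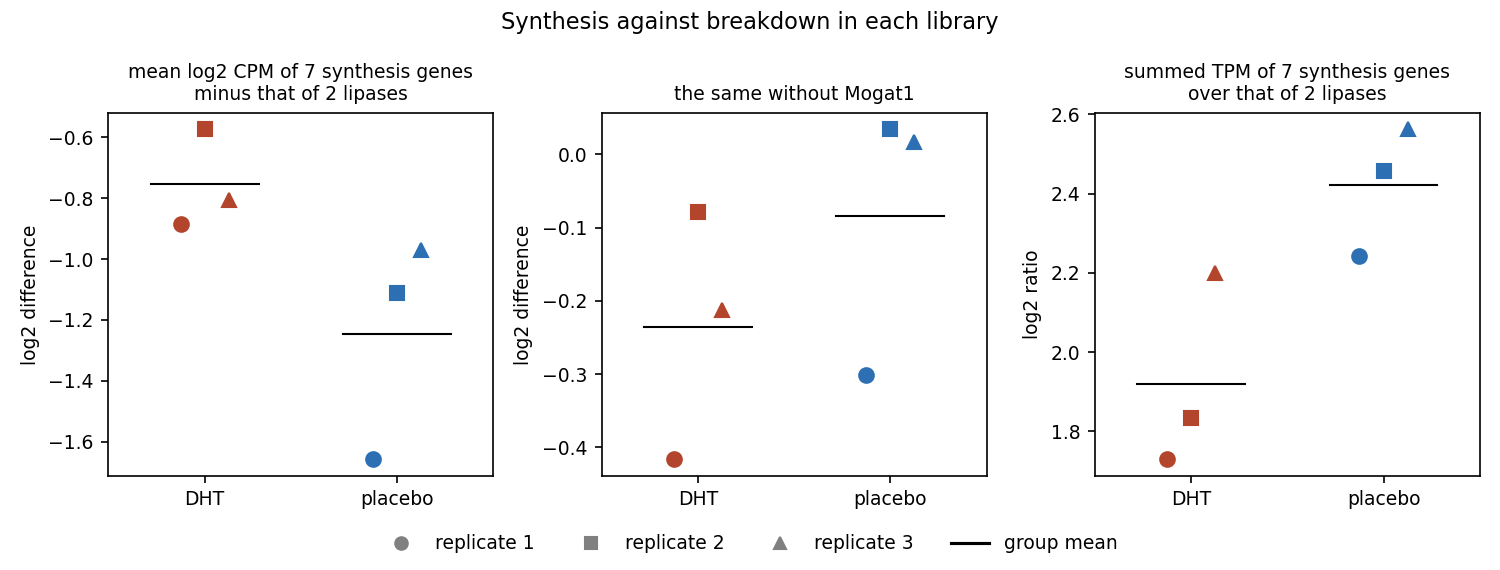
Synthesis against breakdown in the 3 DHT libraries, left, and the 3 placebo libraries, right, in each panel, on a log2 scale: the mean log2 CPM of 7 synthesis genes minus that of Pnpla2 and Mgll, the same without Mogat1, and the log2 ratio of summed TPM. Symbols mark the replicate number and bars the group mean. The difference between group means is 0.49, −0.15 and −0.50 in the 3 panels.

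Among 16 other genes of triglyceride synthesis and fatty acid activation, 1 rose and 0 fell, where 0.952% of all genes were called higher and 0.701% lower. Their median log2 fold change was −0.02, as over all genes. The one that rose was Gpd1 (chromosome 15, 99717515 to 99725005), whose enzyme makes the glycerol 3-phosphate that GPAM acylates. It had 619, 704 and 561 CPM in DHT 1, 2 and 3, against 180.3, 202 and 121 CPM in placebo 1, 2 and 3. The lowest DHT library held more than any placebo library by a wide margin, and the log2 fold change was 1.90 ± 0.29 (adjusted p = 0.0199). Gpd1 lost its call without DHT 1 (adjusted p = 0.0891), DHT 2 (0.0960), placebo 1 (0.0878) or placebo 2 (0.0532), and was called in the blocked fit. Exons of Gpd1 overlap those of Gm16537 on the opposite strand over 13.0% of their length. In the blocked fit 1 gene of the list rose and 2 fell, Agpat5 and Acsl4, against 5.44% and 5.28% of all genes. DESeq2 also called 1 higher and the same 2 lower, against 3.3% and 3.73%. Agpat5 and Acsl4 were named after their values were seen.

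Of 11 other genes of lipolysis, 0 rose and 0 fell, with a median of −0.09. These include Hilpda, the gene of another ATGL inhibitor (log2 fold change 0.84, adjusted p = 0.437), so the median is not one of lipases alone. At an unadjusted p under 0.05, 1 was higher and 1 lower, against 7.4% and 8.52% of all genes. DESeq2 and limma voom each called 1 higher, against 3.3% and 2.58% of all genes. The blocked fit called 1 higher and 1 lower, against 5.44% and 5.28%. The smallest p-values were those of Ddhd2, a phospholipase and triglyceride hydrolase gene, Lipc, the hepatic lipase gene, and Ces1d, a carboxylesterase gene with triglyceride hydrolase activity. Ddhd2 had 19.1, 24.2 and 14.7 CPM in DHT and 7.21, 11.2 and 9.50 CPM in placebo, with a log2 fold change of 1.05 ± 0.29 (adjusted p = 0.138, blocked 0.00765). Lipc had 131, 69.7 and 116 CPM in DHT and 165, 259 and 204 CPM in placebo, with −0.99 ± 0.32 (adjusted p = 0.198, blocked 0.0209). The groups did not overlap in Ddhd2 or Lipc, where 12.7% of all genes lay wholly above placebo and 10.9% wholly below. Ces1d had 437, 506 and 431 CPM in DHT and 384, 902 and 1117 CPM in placebo, which overlapped (−0.81 ± 0.39, adjusted p = 0.357).

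Of 9 regulators, which were transcription factors and coactivators acting on these genes and the phosphatase that activates lipins, 0 rose and 0 fell, with a median of −0.14. At an unadjusted p under 0.05, 1 was higher and 0 lower, against 7.4% and 8.52% of all genes. DESeq2, limma voom and the blocked fit each called 1 higher, Pparg, against 3.3%, 2.58% and 5.44% of all genes. This gene, of a nuclear receptor that drives fat storage, had 22.5, 29.0 and 16.8 CPM in DHT 1, 2 and 3, against 9.79, 11.1 and 6.11 CPM in placebo 1, 2 and 3. The groups did not overlap, and the log2 fold change was 1.34 ± 0.32 (adjusted p = 0.0967, blocked 0.000329, 0.0403 without placebo 3 and 0.0325 without both libraries numbered 3). Next were Ppargc1a, a coactivator gene (−0.77 ± 0.35, adjusted p = 0.335), and Foxo1, a fasting-responsive factor gene (−0.94 ± 0.49, adjusted p = 0.380). Ppargc1a ran from −1.06 without placebo 3, where it passed (adjusted p = 0.0341), to −0.61 without placebo 2 (adjusted p = 0.404). Foxo1 ran from −1.36 without placebo 3, where it passed (adjusted p = 0.0130, and 0.0419 without both libraries numbered 3), to −0.57 without placebo 1 (adjusted p = 0.631). Both overlapped between groups with all 6 libraries.

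**Figure D5:**
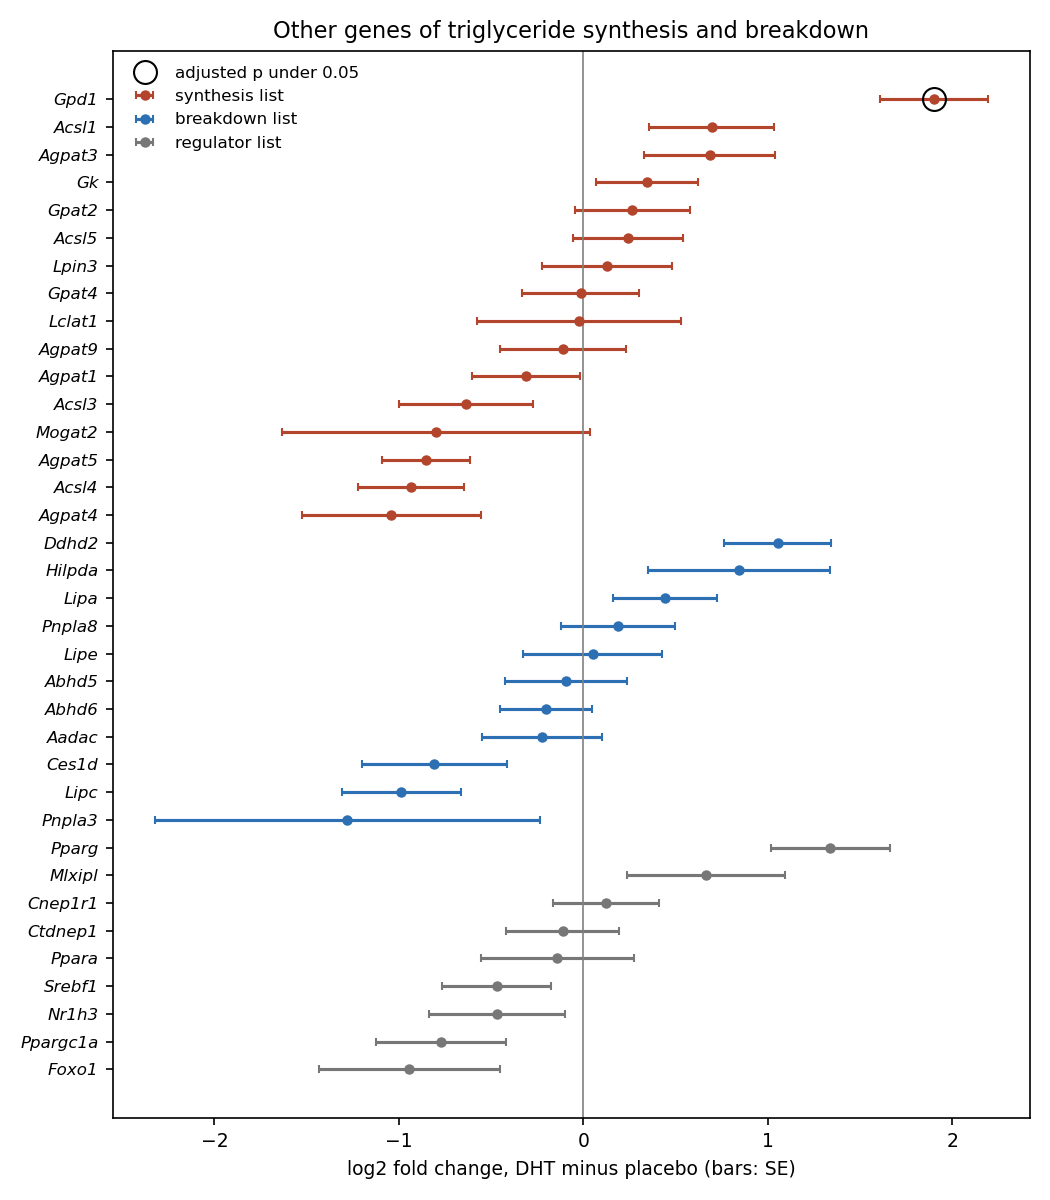
Log2 fold change, DHT minus placebo (horizontal axis; bars are SE), of 16 synthesis genes, 11 breakdown genes and 9 regulators, ordered by size within each list; a black ring marks an adjusted p under 0.05. Gpd1, at 1.90, is the one gene with a ring, and the breakdown genes include Hilpda, the gene of an ATGL inhibitor.

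Markers of liver cell types were set beside these results. Of the 6 hepatocyte markers, 0 were called, and their summed CPM was 71113 to 86848 in DHT and 92816 to 128561 in placebo. Most of that sum was Alb, the albumin gene, at 51387 to 65991 CPM in DHT and 68087 to 96192 in placebo, and the 6 genes differed in direction. Alb and Cps1, a urea cycle gene, lay wholly below placebo (log2 fold change −0.49 for Alb and −1.41 for Cps1), where 10.9% of all genes did so. Cps1 was called lower in the blocked fit (adjusted p = 0.00834) and by DESeq2, against 5.28% and 3.73% of all genes. Apob (0.39) and Hnf4a (0.20) had positive estimates and overlapped. Stellate cell markers summed to 202 to 245 CPM in DHT and 242 to 472 in placebo. All 5 had negative estimates, and Des and Colec11 lay wholly below placebo. Kupffer cell markers summed to 157 to 235 CPM in DHT and 142 to 206 in placebo, and sinusoidal endothelial markers to 89.4 to 115 CPM in DHT and 101 to 208 in placebo. The median log2 fold change was −0.84 for the stellate, 0.05 for the Kupffer and −0.39 for the endothelial markers. Cholangiocyte markers summed to 50.1 to 101 CPM in DHT and 78.2 to 90.2 in placebo, mostly from Spp1. The keratin genes Krt19 (−1.49) and Krt7 (−1.17) and the adhesion gene Epcam (−0.89) lay wholly below placebo. Their unadjusted p by edgeR was 0.00252, 0.0198 and 0.0154. Sox9 went the other way (0.51) and overlapped, as did Spp1 (−0.24). Over all genes, 10.9% lay wholly below placebo and 8.52% were lower at an unadjusted p under 0.05. The lymphocyte markers summed to 2.26 to 2.73 CPM in DHT and 2.19 to 5.44 in placebo. None of the 5 genes in each of these 5 lists was called by edgeR without the block and with all 6 libraries, 1 lymphocyte marker being too low to test. The blocked fit called Colec11, a stellate cell marker, and Krt19 lower, where 5.28% of all genes were called lower. DESeq2 called Krt19, Epcam and Nkg7, a lymphocyte marker, lower, against 3.73% of all genes. In limma voom Krt19 and Nkg7 were called lower, against 2.34%. Krt19 also passed without placebo 3. The single markers were named after their values were seen. No marker of these 6 lists was at 0 in any library. Their part in the results was not tested.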

How the data were processed

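Liver RNA was sequenced in 3 libraries labelled DHT and 3 labelled placebo, and the authors deposited 1 table of whole-number counts per gene and library, with no normalisation, per the file headers. The submitters' processing notes name Trimmomatic 0.36, STAR 2.5.2b, featureCounts, Subread 1.5.2 and GRCm38. The strand setting and the treatment of multi-mapped reads are not stated in any source used here. Total counts were 41336844 to 60209462, so 3 counts equal 0.0498 to 0.0726 CPM, a floor that covers counting error only. No 2 libraries agreed within sampling noise (the lowest chi-square was 104.65 per degree of freedom, with 15027 genes).

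DHT was compared with placebo in R 4.3.3 with edgeR 4.0.16 (filterByExpr, TMM factors 0.9214 to 1.0821, robust glmQLFit, glmQLFTest, two-sided, Benjamini-Hochberg over 15126 genes, called under 0.05), without covariates. The standard error is the log2 fold change divided by the square root of F. CPM are scaled by TMM unless stated, and TPM divide counts by the deposited exon length. The script was tested on simulated data.

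All 10 members were named, with called genes of the other lists or, failing those, their 3 smallest p-values. The members and lists were chosen with earlier results of these data known. The titles number the libraries 1 to 3 in each group. Same-numbered libraries deviated together from their group means (r = 0.246, 0.145 and 0.602 for numbers 1, 2 and 3). The labels name no shared litter or day, so the pairing by number is assumed from these correlations. Deviations of the 3 libraries in a group cancel each other, so the values for numbers 1 and 2 are not separate support from that for number 3. DHT 1 correlated more with placebo 2 (r = 0.445) and DHT 2 more with placebo 1 (r = 0.287), so the match of numbers 1 and 2 is uncertain. Alternatives were other scalings and filters, the replicate block, a fit that was not robust, DESeq2 1.42.0, limma 3.58.1 voom, and leaving out each library or both numbered 3. Promoter windows are from RefSeq (GRCm38.p6).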

Additional observations from a re-analysis of the deposited data

How the results depend on the processing

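Genes called over the whole table numbered 250, and 521 with no low-count filter, 1621 with the replicate block, 1062 with DESeq2, 744 with limma voom, 448 without both libraries numbered 3, and 84 to 862 with 1 library left out (84 without DHT 2, 862 without placebo 3). Members called higher numbered 1, and 2 with the replicate block, DESeq2 or limma voom, and 0 or 1 with 1 library left out. Members called lower numbered 0, and 1 with the replicate block. In the synthesis list, genes called higher numbered 0 or 1 with 1 library left out, and 2 were called lower with the replicate block or DESeq2 against 0. In the breakdown list, 1 was called higher with the replicate block, DESeq2 or limma voom, and 1 lower with the replicate block, against 0 each. In the regulator list, 1 was called higher with no low-count filter, the replicate block, DESeq2, limma voom or without both libraries numbered 3, and 0 or 1 with 1 library left out. There 1 was called lower without both libraries numbered 3, and 0 to 2 with 1 library left out, against 0. The block changed no other call of the members. The synthesis minus breakdown difference of 0.49 ran from 0.29 to 0.63 with 1 library left out, and was −0.15 without Mogat1 and −0.50 as a ratio of summed TPM, settings added after seeing the data. The log2 fold change of Lpin2 ran from −0.18 to 0.33 with 1 library left out. No other member changed sign under any of the 15 alternatives. Library size alone moved the median over all genes to 0.17 on the log2 scale, against −0.02. The cause of these shifts was not tested, beyond what each setting changes by construction. At low counts Mogat1 in placebo is the least precise level, at 7 to 35 counts per library.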
